A study of Mus musculus with 10 samples.

Results

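The genes Casp1, Casp8, Cflar, Ripk1, Ripk3, Mlkl, Zbp1 and Gsdmd, which act in programmed cell death, were followed in RNA-seq libraries of mouse acute myeloid leukaemia (AML). These 8 genes were taken by symbol from the deposited table, and all 8 were found among its 38215 genes and passed the filter on low counts, which 13966 genes did. The leukaemia was started by transducing lineage-depleted bone marrow cells with AML-1 ETO and Nras G12D, both expressed from the retroviral vector MSCV-IRES-GFP, so that GFP marked the transduced cells. Every primary recipient was a Rag2-/-γc-/- mouse, a strain that lacks T, B and NK cells. GFP+ spleen cells of these primary leukaemias went into secondary recipients that were either immunocompetent C57BL/6J (5 libraries, numbered 1, 3, 4, 5 and 6) or again Rag2-/-γc-/- (5 libraries, numbered 7 to 11). GFP+ splenocytes of each leukaemic secondary recipient were sequenced. All 10 libraries therefore carry the same 2 oncogenes and share a first passage without lymphocytes. The labels state neither age nor sex nor how many primary leukaemias were used. The p-values therefore cover only differences among these 10 recipients.

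The 8 genes belong to 3 connected forms of cell death. Caspase-8 is activated below death receptors and starts apoptosis, while Cflar encodes c-FLIP, a catalytically inactive relative that binds caspase-8 and limits it. When caspase-8 is blocked, the kinases RIPK1 and RIPK3 can assemble through a shared interaction motif and phosphorylate MLKL, which breaks the plasma membrane in necroptosis. ZBP1, an interferon-inducible sensor of Z-form nucleic acid, carries the same motif and can engage RIPK3 directly. Caspase-1 is activated by inflammasomes, matures interleukin-1β and interleukin-18 and cuts gasdermin D (Gsdmd), whose free end forms pores in pyroptosis. Myeloid cells, including dendritic cells and monocytes, are well known for inflammasome responses.

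The libraries held 28157745 to 62461126 expected counts, a scale that splits an ambiguous read among the genes it matches. The least covered of the 8 genes was Mlkl, with 91 to 211 expected counts per library, so that counting alone gives an error of about 10.5% in its lowest library. Casp1 had 113 to 401 and the other 6 had at least 331. Levels are given as CPM (read counts scaled to a common library size with TMM factors). Dendritic cell markers summed to 5320 to 6450 CPM in C57BL/6J and 3510 to 5100 CPM in Rag2-/-γc-/- libraries. Among them Siglech and Cd209a stayed at or below 0.397 and 0.658 CPM. The 10 neutrophil markers summed to 3.76 to 28.5 CPM in C57BL/6J and 5.33 to 29.2 CPM in Rag2-/-γc-/- libraries. One of these, the granulocyte gene Mpo, stayed at or below 0.796 CPM. The cells are labelled AML. Rag2-/-γc-/- libraries 7, 8 and 9 and libraries 10 and 11 stood apart from each other: 464 genes were called higher in C57BL/6J with all libraries, 2786 without libraries 10 and 11, and 148 without libraries 7, 8 and 9. C57BL/6J library 1 had the lowest share of mitochondrial counts (1.34%, against 2.91% to 4.0% in the other libraries). Values without these libraries are given below for some genes, not for every call or value that they change.

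In leukaemia from C57BL/6J recipients, 2 of the 8 genes rose and 1 fell (quasi-likelihood F test of edgeR, p adjusted over all tested genes by Benjamini-Hochberg and under 0.05). Zbp1 and Casp1 rose, and Casp8 fell. Over all tested genes 3.32% rose and 4.47% fell. For each of these 3 genes the 5 values of one group did not overlap the 5 of the other, which held for 4.13% of all tested genes in the upward, 4.37% in the downward and 8.5% in either direction. The median log2 fold change of the 8 genes, -0.05, lay next to that of all tested genes, 0. The other 5 genes, Ripk1, Ripk3, Mlkl, Cflar and Gsdmd, did not pass the threshold. The plot of CPM by library shows all 8 genes.

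**Figure D1:**
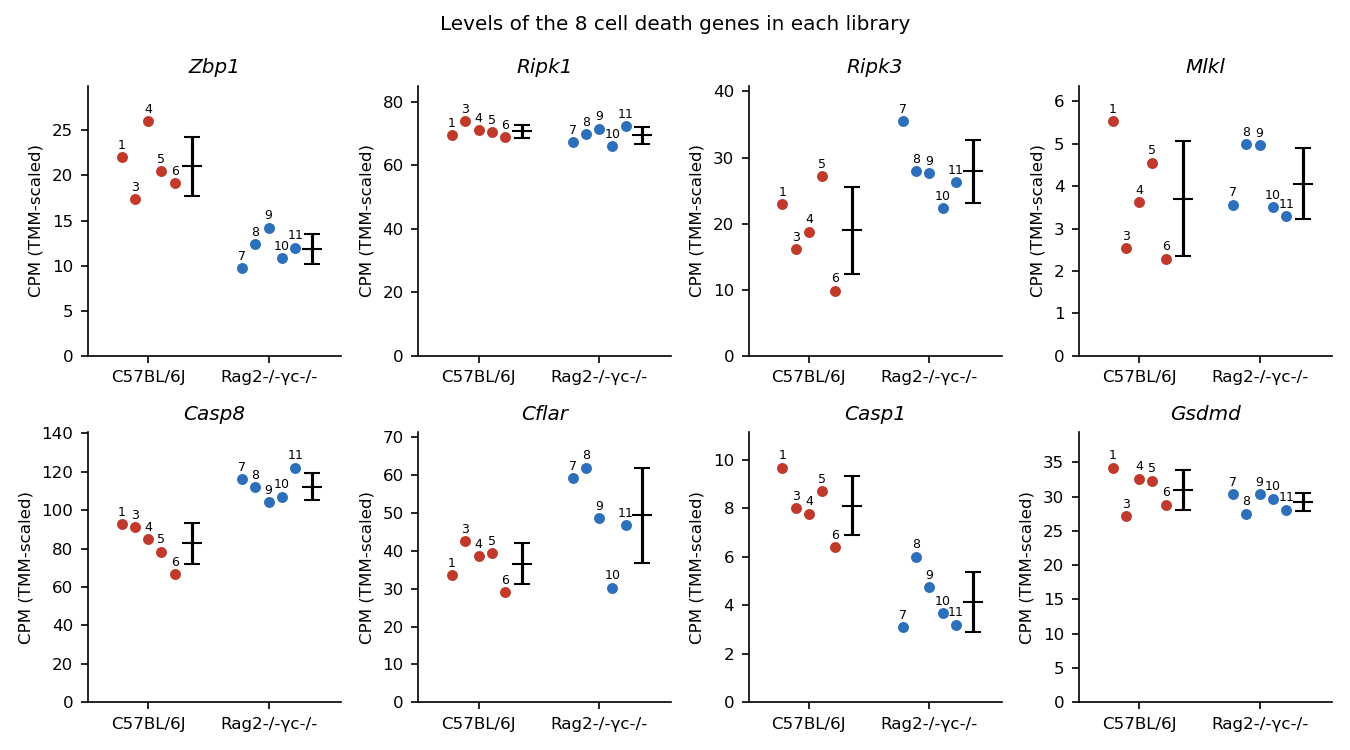
TMM-scaled CPM (vertical axis, from 0) of each gene in every library, with C57BL/6J recipients in red and Rag2-/-γc-/- recipients in blue. Numbers are library numbers, and the black bar beside each group is its mean with the SD. Zbp1 and Casp1 are higher in all 5 C57BL/6J libraries, Casp8 is lower in all 5, and Ripk1 and Gsdmd are nearly level.

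RefSeq promoter sequence was matched for 6 of the 8 genes, and not for Zbp1 and Gsdmd. The windows run from 250 bases before to 50 bases after an annotated start on GRCm38.p6. They were searched on both strands for 4 patterns. These were GAAA, any 2 bases and GAAA, the core of the interferon-stimulated response element (ISRE); TTC, any 3 bases and GAA, the palindrome of the interferon-gamma activated site; GGG, any 3 bases and TTCC, a form of the NF-κB site; and GAGGAA, the PU-box of the myeloid factor PU.1. They occur in 3.44%, 8.30%, 5.56% and 28.3% of all 32851 promoter windows. The upstream parts of Casp1 and Casp8 are shown because these genes changed in opposite directions, and the sites of Cflar and Ripk1 because theirs were the only windows of the 6 genes with an ISRE match. Capitals mark the matched letters. Casp1 is at chr9:5298267-5298516 (plus strand), Casp8 at chr1:58802252-58802501 (plus strand, before a RefSeq start that lies inside the Ensembl gene), the Cflar site at chr1:58711487-58711516 (plus strand) and the Ripk1 site at chr13:34002856-34002885 (plus strand, at the downstream one of its 2 RefSeq starts).
Casp1: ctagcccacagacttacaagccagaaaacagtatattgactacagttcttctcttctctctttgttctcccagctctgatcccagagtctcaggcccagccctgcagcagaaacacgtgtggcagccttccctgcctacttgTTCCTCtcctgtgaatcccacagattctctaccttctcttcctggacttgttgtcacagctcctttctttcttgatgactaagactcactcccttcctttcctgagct
Casp8: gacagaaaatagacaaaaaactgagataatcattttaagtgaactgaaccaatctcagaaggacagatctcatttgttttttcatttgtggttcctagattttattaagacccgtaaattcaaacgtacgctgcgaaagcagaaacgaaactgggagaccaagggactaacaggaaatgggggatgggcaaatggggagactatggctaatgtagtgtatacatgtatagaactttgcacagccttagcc
Cflar: ccacgtctgcTTTCGGTTTCtgggcgtctc
Ripk1: tcaaacgTTCCCGGAAATCGAAAagcgcgg
The Casp1 window held a PU-box on the minus strand, 108 bases before the start, and none of the other 3 patterns. The Casp8, Ripk3 and Mlkl windows held none of the 4. In Cflar the ISRE letters lie on the minus strand, from base 7 after the start. In Ripk1 the palindrome and the ISRE overlap in the printed site, and a second copy of the palindrome lies 108 bases before the same start. That Ripk1 window also held PU-boxes on the minus strand, 212 and 124 bases before the start. Neither Cflar nor Ripk1, the genes with ISRE letters, was among those that passed the test.

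Zbp1 (ENSMUSG00000027514, chromosome 2, 173206612 to 173218923, GRCm38, minus strand) had 22, 17.4, 26.0, 20.5 and 19.1 CPM in C57BL/6J libraries 1, 3, 4, 5 and 6. In Rag2-/-γc-/- libraries 7 to 11 it had 9.73, 12.4, 14.2, 10.8 and 12 CPM. The lowest C57BL/6J library was thus above the highest Rag2-/-γc-/- library. The log2 fold change was 0.83 ± 0.14 (SE; edgeR adjusted p = 0.0042). It kept its call in all 21 alternatives run, with log2 fold changes of 0.73 to 0.90. Adar, whose product edits double-stranded RNA and restrains ZBP1, went the other way without passing the test (log2 fold change -0.24 ± 0.11; edgeR adjusted p = 0.196). The log2 ratio of Zbp1 to Adar was -1.55 to -2.25 in C57BL/6J libraries and -2.82 to -3.19 in Rag2-/-γc-/- libraries. Zbp1 RNA was therefore 0.268 of the Adar level by geometric mean in the first group and 0.128 in the second, not corrected for length.

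Casp1 (ENSMUSG00000025888, chromosome 9, 5298517 to 5307265, plus strand) had 9.68, 8.0, 7.79, 8.72 and 6.41 CPM in the C57BL/6J libraries, in the same order. It had 3.09, 6.01, 4.74, 3.69 and 3.21 CPM in the Rag2-/-γc-/- libraries. The groups came close in C57BL/6J library 6 and Rag2-/-γc-/- library 8 but did not overlap. The log2 fold change was 0.97 ± 0.20 (SE; edgeR adjusted p = 0.0153), a 1.96-fold change. Casp1 kept its call in all 21 alternatives, with log2 fold changes of 0.73 to 1.24 and adjusted p of 0.00017 to 0.0366. Casp4, the mouse caspase-11 gene for intracellular lipopolysaccharide and a close relative of Casp1, was far lower at 1.28 ± 0.331 against 0.606 ± 0.350 CPM (mean ± SD of 5 libraries in each group, as for all such pairs below; edgeR adjusted p = 0.128). The expected counts of Casp1 were whole numbers in all 10 libraries, so they show no reads divided between Casp1 and such relatives.

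Casp8 (ENSMUSG00000026029, chromosome 1, 58795374 to 58847503, plus strand) went in the opposite direction. It had 92.5, 91.2, 84.9, 78.3 and 66.5 CPM in the C57BL/6J libraries and 116, 112, 104, 107 and 122 CPM in the Rag2-/-γc-/- libraries. All 5 C57BL/6J values were below all 5 Rag2-/-γc-/- values, and the spread between replicates was small (SD 0.19 and 0.10 on the log2 scale). The log2 fold change of Casp8 was -0.44 ± 0.10 (SE; edgeR adjusted p = 0.0216). The call was narrow: the adjusted p was 0.0551 without C57BL/6J library 5, 0.0507 without Rag2-/-γc-/- library 7 and 0.0519 without library 8. Without libraries 7, 8 and 9 together it was 0.173, and with 1 surrogate variable 0.064. The size of the difference hardly moved, with log2 fold changes of -0.48 to -0.37 over the 21 alternatives.

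Cflar (ENSMUSG00000026031, chromosome 1, 58711508 to 58758884, plus strand) is the upstream neighbour of Casp8, and 36489 bases separate the annotated genes. It had 33.5, 42.6, 38.6, 39.4 and 29.0 CPM in the C57BL/6J libraries and 59.2, 61.9, 48.6, 30.3 and 46.8 CPM in the Rag2-/-γc-/- libraries. Only Rag2-/-γc-/- library 10 fell inside the C57BL/6J range, and the other 4 were above it. With all libraries Cflar did not pass (log2 fold change -0.43 ± 0.18; edgeR adjusted p = 0.163). Without library 10 it did (-0.56; edgeR adjusted p = 0.0209), and without libraries 10 and 11 as well (-0.62; edgeR adjusted p = 0.0061). Without libraries 7, 8 and 9 it was nearly level at -0.07 (edgeR adjusted p = 0.937). The log2 ratio of Casp8 to Cflar was 1.18 ± 0.18 in C57BL/6J and 1.22 ± 0.38 in Rag2-/-γc-/- recipients (SD, n = 5 each), with its highest value, 1.81, in library 10. These ranges overlapped.

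The kinases and the executioner of necroptosis did not pass the test. Ripk1 (ENSMUSG00000021408, chromosome 13, 34002363 to 34035170, plus strand) was the steadiest of the 8, at 69.5, 73.9, 71.0, 70.4 and 68.8 CPM in C57BL/6J and 67.3, 69.9, 71.5, 66.1 and 72.3 CPM in Rag2-/-γc-/- libraries. Its highest library exceeded its lowest only 1.12-fold, and its log2 fold change was 0.03 ± 0.07 (SE; edgeR adjusted p = 0.818). In GENCODE M21 its exons share 511 bases with the processed pseudogene Gm17084 on the same strand and 241 bases with Serpinb6a on the opposite strand, so its level depends on how the authors divided such reads.

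Ripk3 (ENSMUSG00000022221, chromosome 14, 55784996 to 55788857, minus strand) had 23.0, 16.1, 18.8, 27.2 and 9.86 CPM in C57BL/6J and 35.5, 27.9, 27.6, 22.3 and 26.3 CPM in Rag2-/-γc-/- libraries. It was the most variable within the C57BL/6J group, where library 5 exceeded library 6 2.76-fold, and libraries 1 and 5 reached into the Rag2-/-γc-/- range. Its log2 fold change was -0.56 ± 0.23 (SE; edgeR adjusted p = 0.161). It passed only in limma-voom with sample quality weights (-0.66; adjusted p = 0.0159). The log2 ratio of Ripk3 to Casp8 was -2.75 to -1.52 in C57BL/6J and -2.25 to -1.71 in Rag2-/-γc-/- libraries, so the groups overlapped.

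Mlkl (ENSMUSG00000012519, chromosome 8, 111311797 to 111338177, minus strand) was the scarcest of the 8. It had 5.53, 2.54, 3.63, 4.55 and 2.29 CPM in C57BL/6J and 3.56, 4.99, 4.96, 3.5 and 3.29 CPM in Rag2-/-γc-/- libraries, and the C57BL/6J values enclosed all the others. Its log2 fold change was -0.13 ± 0.26 (SE; edgeR adjusted p = 0.763), with a sign that turned without libraries 7, 8 and 9 (0.13) and with 1 surrogate variable (0.04), and a value of 0.00 without C57BL/6J library 6. Within the C57BL/6J group Ripk3 and Mlkl were both highest in libraries 1 and 5 and lowest in library 6, with library 3 next to it.

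Gsdmd (ENSMUSG00000022575, chromosome 15, 75862339 to 75867404, plus strand), the substrate of caspase-1, was nearly as level as Ripk1. It had 34.2, 27.1, 32.6, 32.3 and 28.8 CPM in C57BL/6J and 30.3, 27.5, 30.3, 29.7 and 28.1 CPM in Rag2-/-γc-/- libraries. Its log2 fold change was 0.09 ± 0.09 (SE; edgeR adjusted p = 0.547). The log2 ratio of Gsdmd to Casp1 did not overlap between the groups, at 1.75 to 2.16 in C57BL/6J and 2.19 to 3.27 in Rag2-/-γc-/- libraries. The gap between them was narrow, and Rag2-/-γc-/- library 8 held the value of 2.19.

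**Figure D2:**
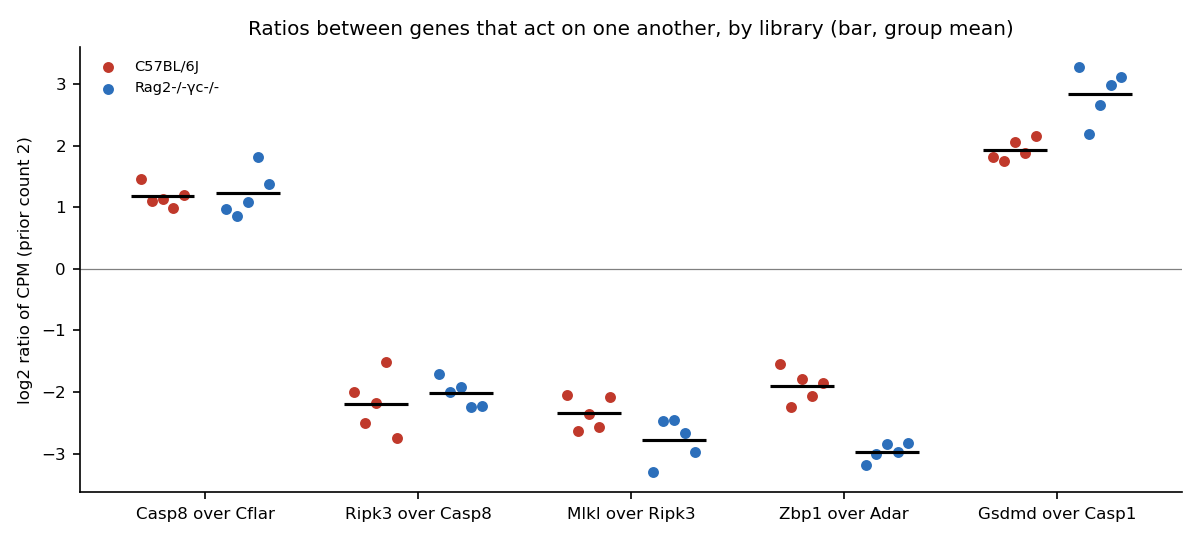
Log2 ratios of CPM (vertical axis, prior count 2) for 5 pairs of genes in each library, with C57BL/6J in red, Rag2-/-γc-/- in blue and group means as black bars. The groups separate for Zbp1 over Adar and for Gsdmd over Casp1 and overlap for the other 3 pairs.

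Levels of different genes were compared per kilobase of merged exons (CPM per kb, mean ± SD over all 10 libraries). Casp8 was the most abundant at 33.7 ± 6.16, and its lowest library (23.0) lay above the highest of Gsdmd (14.4). Gsdmd (12.7 ± 0.984), Ripk3 (10.2 ± 3.14) and Ripk1 (8.40 ± 0.278) followed, and Ripk3 did not differ from either neighbour beyond its spread of 4.30 to 15.5. Zbp1 (4.65 ± 1.54), Casp1 (4.1 ± 1.6) and Cflar (3.39 ± 0.890) overlapped one another over the 10 libraries, and the range of Cflar reached that of Mlkl (1.69 ± 0.470). Within C57BL/6J libraries the order was Zbp1 (5.95), Casp1 (5.43) and Cflar (2.89), and Cflar, at no more than 3.37, lay below the lowest values of Casp1 (4.29) and Zbp1 (4.94). Within Rag2-/-γc-/- libraries it was Cflar (3.90), Zbp1 (3.35) and Casp1 (2.77), with overlapping ranges. The place of Cflar depends on the length used, since its merged exons span 12669 bases and its longest transcript 6572. Per kilobase of the longest transcript Cflar had a mean of 6.54, above that of Zbp1 at 4.94, and within C57BL/6J libraries it lay between Zbp1 and Casp1 (5.57, against 6.32 and 5.43).

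Summed markers of T and NK cells differed between the groups, while single markers went both ways. Of 15 T cell markers, 2 rose and none fell (7 tested), and their summed level was 66.3 to 118 CPM in C57BL/6J and 21.5 to 47.9 CPM in Rag2-/-γc-/- libraries. Cd8a, which cross-presenting dendritic cells also express, was the most abundant of them, at 71 ± 22.4 against 28.9 ± 10.3 CPM. The 2 that rose were Cd8a and Zap70. Zap70 had 1.23 ± 1.39 against 0.0118 ± 0.0165 CPM with no overlap between groups (log2 fold change 6.1 ± 1.06, edgeR adjusted p = 0.00443). Cd5 went the other way without passing the test (1.43 ± 0.873 against 2.83 ± 1.07 CPM, edgeR adjusted p = 0.138). Cd8b1, Themis and Cd28 had no counts in any Rag2-/-γc-/- library. Of 9 NK cell markers 1 rose (2 tested), with sums of 14.8 to 22 against 3.27 to 10.4 CPM. Klrk1, the one that rose, was the most abundant, at 14.1 ± 3.9 against 5.05 ± 2.34 CPM. Klrb1c went the other way without passing (0.809 ± 0.277 against 2.07 ± 1.47 CPM, edgeR adjusted p = 0.115). Ncr1, Klra8, Gzma and Gzmb had no counts in Rag2-/-γc-/- libraries. In C57BL/6J libraries they averaged 0.0824, 0.0658, 0.504 and 0.797 CPM, and Ncr1 and Klra8 overlapped between the groups. Of 9 B and plasma cell markers (6 tested) 1 rose and 1 fell, and their sums overlapped, at 285 to 413 CPM in C57BL/6J libraries and from 250 CPM upwards in the others. The one that rose, Cd79a, was uneven among C57BL/6J libraries, with 38.3 CPM in library 1. The one that fell was Cd22, at 13 ± 9.62 against 43.7 ± 4.38 CPM (edgeR adjusted p = 0.0143). The CD3 genes Cd3d, Cd3e and Cd3g summed to 10.1, 3.45, 1.19, 0.305 and 1.71 CPM in C57BL/6J libraries 1, 3, 4, 5 and 6, against 0 to 0.152 CPM in the Rag2-/-γc-/- libraries. C57BL/6J library 5, singled out after its values were seen as the lowest of its group in this sum, had 2.1 times the Rag2-/-γc-/- mean of Casp1, against 1.96 for the group means. For Zbp1 these ratios were 1.74 and 1.78, and for Casp8 0.698 and 0.737. In the sum of all 15 T cell markers library 5 was not the lowest, at 78.1 CPM against 66.3 and 67.5 CPM in libraries 3 and 4. Without library 1 the log2 fold changes were 0.90 for Casp1 and 0.82 for Zbp1. Erythroid markers went the other way (14.9 to 146 against 74.3 to 242 CPM) and red pulp macrophage markers too (1920 to 2790 against 2450 to 3540 CPM), with overlap. Of 10 macrophage markers 2 fell. The sums of the dendritic cell markers given above did not overlap, and of 8 tested markers 1 rose, Flt3, at 21.4 ± 16.6 against 4.75 ± 1.37 CPM (edgeR adjusted p = 0.0109). Irf8 and Wdfy4 were higher in all 5 C57BL/6J libraries without passing the test (edgeR adjusted p = 0.0706 and 0.115). Xcr1, Clec9a, Batf3, Zbtb46, Itgax, Siglech and Ccr7 had higher means in C57BL/6J, but their groups overlapped. Cd209a, too scarce to be tested, went the other way (0.123 ± 0.0812 against 0.341 ± 0.281 CPM, with overlap). Flt3, Irf8, Wdfy4 and the sum moved in the same direction as Casp1 and Zbp1. The part of the T cell, NK cell, B cell, dendritic cell, macrophage and erythroid shifts in the results was not tested. In bulk samples a smaller share of cells that express a gene and less RNA per cell cannot be told apart.

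**Figure D3:**
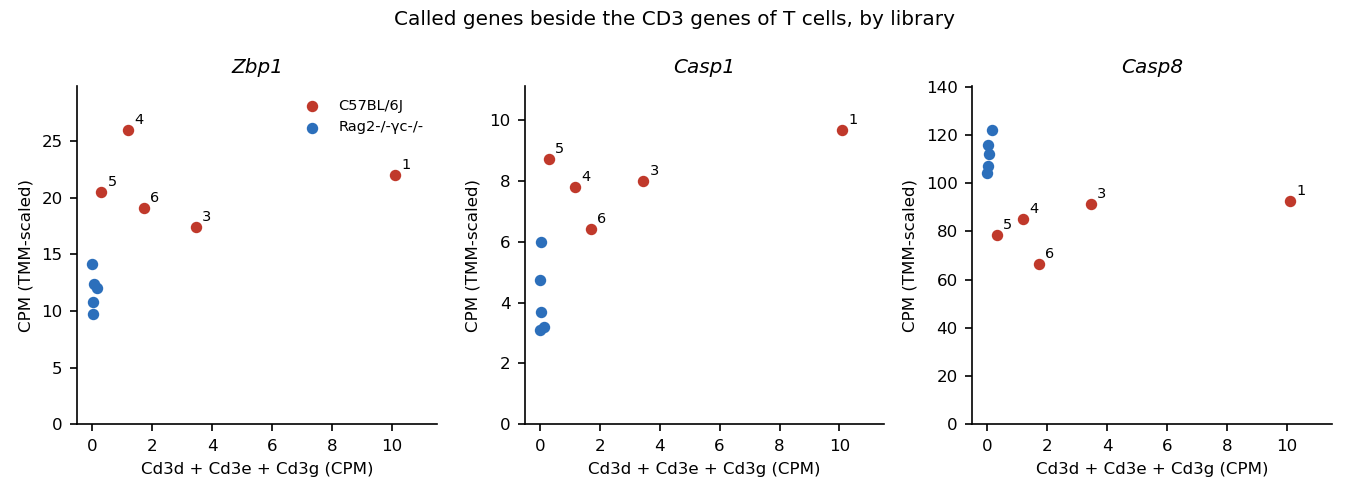
TMM-scaled CPM of Zbp1, Casp1 and Casp8 (vertical axes, from 0) against the summed CPM of Cd3d, Cd3e and Cd3g (horizontal axes) in each library, with C57BL/6J in red (numbered) and Rag2-/-γc-/- in blue. C57BL/6J library 5, with 0.305 CPM of the CD3 genes, lies with the other C57BL/6J libraries on all 3 vertical axes.

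The other genes of these pathways were read from 9 lists with 74 genes, of which 68 were tested. In C57BL/6J recipients 6 of them rose and 1 fell, with a median log2 fold change of -0.05 (0 over all tested genes), where 3.32% and 4.47% of all tested genes rose and fell. The number that rose was 3 when library 3, 4 or 8 was omitted and 2 when library 6 or 9 was. The number that fell was 0 when library 3, 5, 6, 7, 8 or 9 was omitted, 2 when library 1 or 11 was, and 7 when library 10 was.

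Most inflammasome genes did not pass the test. Of 10 tested sensor and adaptor genes 1 rose and none fell (2 had an unadjusted p under 0.05, with a median log2 fold change of -0.02). The one that rose was Pycard, which encodes the adaptor ASC between sensors and caspase-1, at 130 ± 16.0 against 100 ± 7.53 CPM (log2 fold change 0.37 ± 0.10, edgeR adjusted p = 0.0415). Omitting a single library ended the Pycard call in 7 cases, namely 1, 3, 4 and 6 among C57BL/6J and 7, 8 and 9 among Rag2-/-γc-/- libraries, with an edgeR adjusted p of at most 0.104. Omitting libraries 7, 8 and 9 together leaves only libraries 10 and 11 in the Rag2-/-γc-/- group. The Pycard log2 fold change was then 0.44 (edgeR adjusted p = 0.21). The sensor gene Nlrp3 had 124 ± 20.3 against 168 ± 38.1 CPM (edgeR adjusted p = 0.118), and Aim2, a sensor of cytosolic DNA, 76.1 ± 10.1 against 69.0 ± 9.27 CPM (edgeR adjusted p = 0.464). Among cargo and rupture genes 1 of 8 rose and 1 fell. Il1a, an alarmin released by dying cells, had 53.8 ± 8.88 against 36.7 ± 6.27 CPM (log2 fold change 0.55 ± 0.14, edgeR adjusted p = 0.0401). That call ended on omitting library 3, 4, 6, 8 or 9, with an edgeR adjusted p of at most 0.102. With libraries 7, 8 and 9 all omitted the Il1a log2 fold change was 0.44 (edgeR adjusted p = 0.27). Il18, a caspase-1 substrate, fell by 1.21 ± 0.33 on the log2 scale from 1.06 CPM (edgeR adjusted p = 0.0471), a call that ended in 11 of the 20 alternatives in which it could be tested. Without libraries 7, 8 and 9 the Il18 log2 fold change was -1.08 (edgeR adjusted p = 0.357). Il1b, the other substrate, stayed low at 2.44 ± 0.758 against 1.87 ± 0.842 CPM (edgeR adjusted p = 0.497). The other gasdermins were scarce: Dfna5 (Gsdme) had 6.95 ± 0.555 against 6.67 ± 0.932 CPM, and Gsdma and Gsdmc had no counts, which allows up to 0.00753 CPM over all libraries by a floor of 3 counts.

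Among 6 other tested caspases 1 rose. Casp6, an effector caspase, had 26.8 ± 2.47 against 18.3 ± 3.96 CPM (log2 fold change 0.55 ± 0.15, edgeR adjusted p = 0.0451). Omitting any C57BL/6J library, or library 9 or 11 of the other group, ended this call with an edgeR adjusted p of at most 0.11. Without libraries 7, 8 and 9 the Casp6 log2 fold change was larger, at 0.93 (edgeR adjusted p = 0.0111). Without libraries 10 and 11 it was smaller, at 0.35 (edgeR adjusted p = 0.0237). With 1 surrogate variable it was 0.82 (edgeR adjusted p = 0.00568). Casp9, the initiator of the mitochondrial arm, had 47.4 ± 3.18 against 60.8 ± 10.2 CPM and did not pass (edgeR adjusted p = 0.087; DESeq2 adjusted p = 0.0376). Casp14, a caspase of keratinocytes, had no counts. Of 8 genes of the mitochondrial arm and the inhibitors of apoptosis 1 rose: Cycs, the gene of cytochrome c, had 93.7 ± 13.8 against 54.7 ± 15.7 CPM (log2 fold change 0.78 ± 0.18, edgeR adjusted p = 0.0252). Omitting library 6, 7, 8 or 9 ended the Cycs call (edgeR adjusted p of at most 0.0708). With 7, 8 and 9 all omitted the log2 fold change was 0.40 (edgeR adjusted p = 0.322).

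No death receptor, ligand or adaptor passed the edgeR test among 8 tested, while 3 had an unadjusted p under 0.05. DESeq2 called 1 lower, limma-voom none, and limma-voom with weights 1 higher and 2 lower. The nearest to the threshold was Fas, the receptor of Fas ligand, with 2.1 ± 0.381 against 3.31 ± 0.688 CPM (log2 fold change -0.66 ± 0.20, edgeR adjusted p = 0.0656). Fas did pass in DESeq2, in limma-voom with weights, and in edgeR once library 10 or 11 was omitted (adjusted p = 0.0476 and 0.0437). Of 15 genes that act on RIPK1 through ubiquitin chains and kinases none passed either. Of these 5 had an unadjusted p under 0.05, DESeq2 called 2 lower, limma-voom none, and limma-voom with weights 3 higher and 7 lower. Tbk1, a kinase that phosphorylates RIPK1, had the smallest p, with 67.6 ± 8.46 against 84.0 ± 7.58 CPM and no overlap between groups (log2 fold change -0.31 ± 0.10, edgeR adjusted p = 0.0897). It passed in DESeq2, in limma-voom with weights and without libraries 10 and 11.

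Other inputs to the necrosome, 4 genes with Ticam1 and Tlr4 besides Adar and Tlr3, held no edgeR, DESeq2 or limma-voom call and 1 unadjusted p under 0.05, while limma-voom with weights called 1 higher and 1 lower. Tlr3, a receptor for double-stranded RNA that signals through TRIF, was abundant at 1080 ± 281 against 734 ± 151 CPM (edgeR adjusted p = 0.129). Without C57BL/6J library 1, where it had 592 CPM, its edgeR adjusted p was 0.0178. The 4 ESCRT genes, whose products mend membranes pierced by MLKL or gasdermin D, held no call in edgeR, DESeq2 or limma-voom and no unadjusted p under 0.05, while limma-voom with weights called 2 lower. Chmp2a had the smallest p among them (90.7 ± 12.6 against 81.0 ± 5.10 CPM, edgeR adjusted p = 0.318). Of 5 interferon transcription factors 2 rose. Irf1, itself induced by interferon, had 107 ± 17.7 against 67.2 ± 10.6 CPM (log2 fold change 0.68 ± 0.14, edgeR adjusted p = 0.0146). Irf1 was not called without libraries 7, 8 and 9 (log2 fold change 0.57, edgeR adjusted p = 0.187). With 1 surrogate variable it was not called either (log2 fold change 0.62, edgeR adjusted p = 0.0627). Stat2 and Irf9, whose products act together on ISRE sites, did not pass (log2 fold changes -0.24 ± 0.19 and -0.05 ± 0.08).

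**Figure D4:**
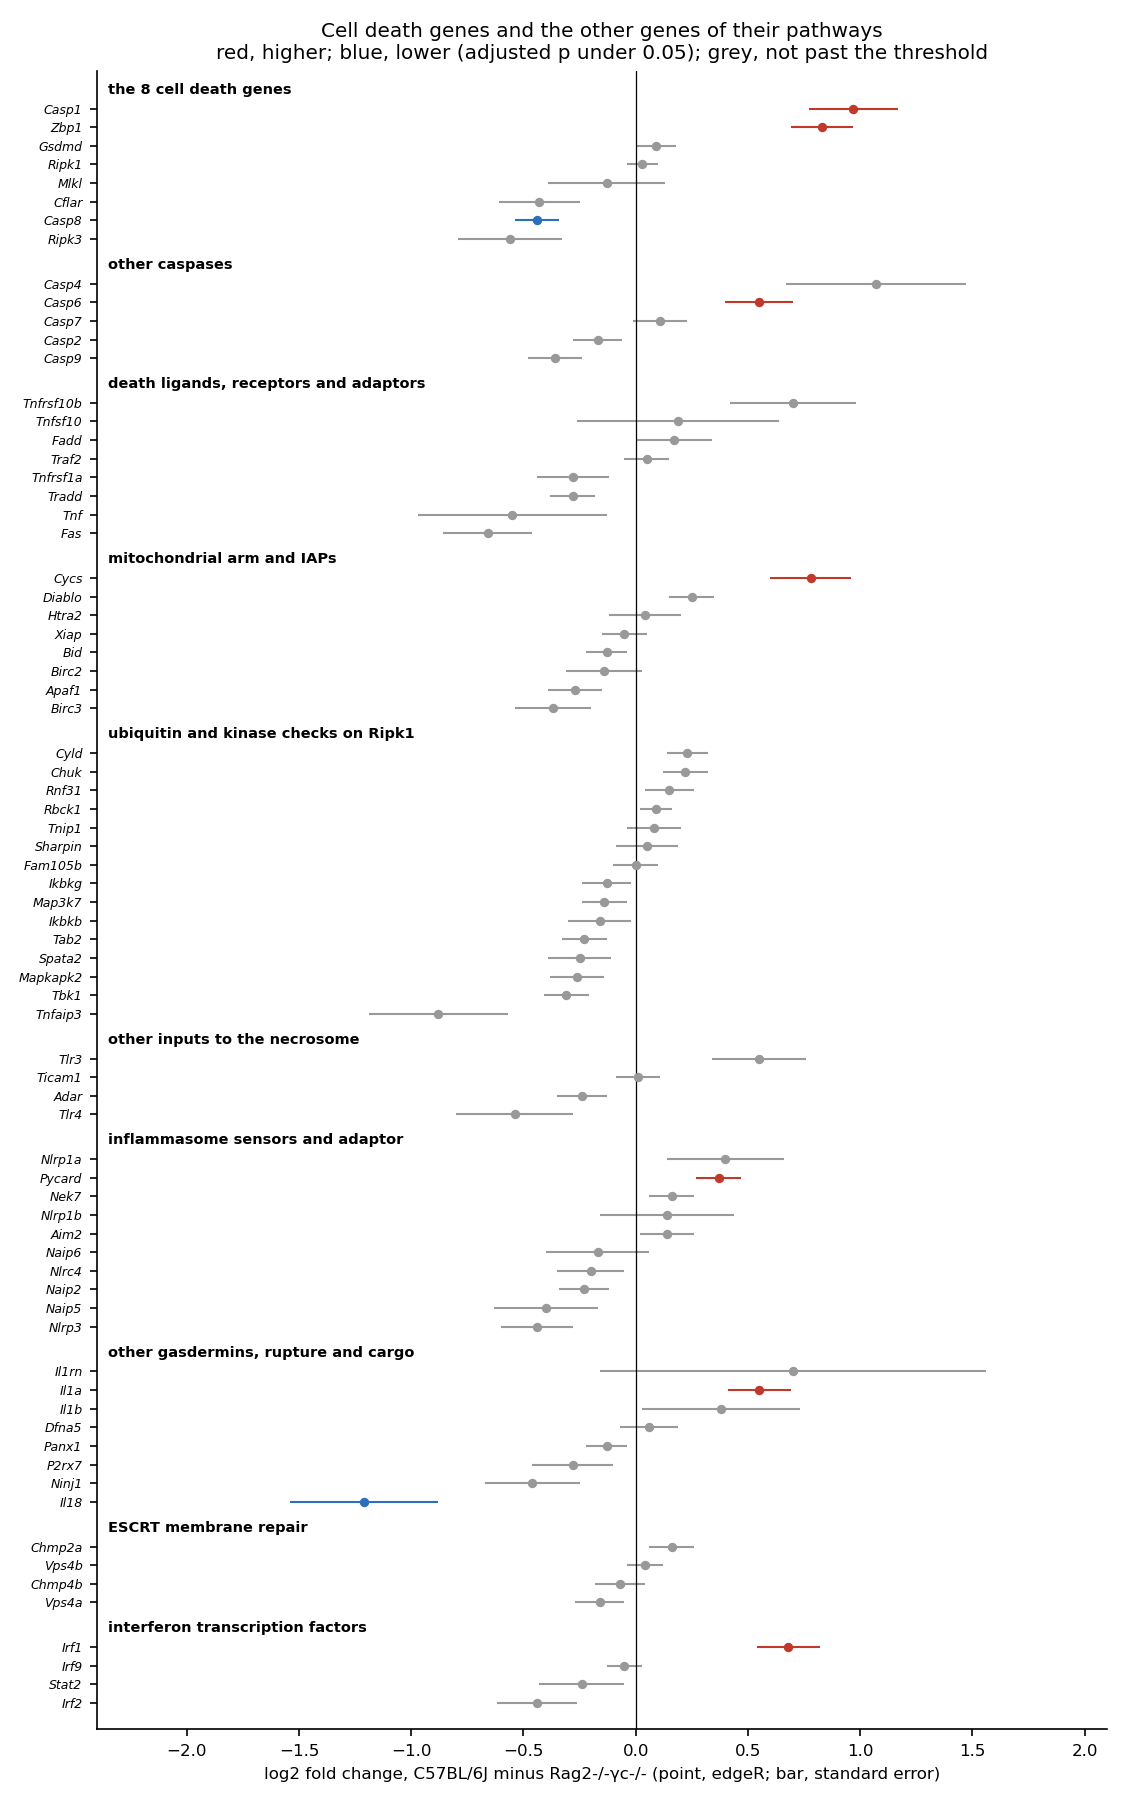
Log2 fold change (horizontal axis, C57BL/6J minus Rag2-/-γc-/-, edgeR) of tested genes with the standard error as a bar, grouped by role. Red genes rose and blue genes fell at an adjusted p under 0.05, and grey genes did not pass. Calls are scattered over 6 groups of genes, with Casp1 and Il18 at the ends of the called range.

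For each of the 8 genes the 2 genes with the most similar profile over the 10 libraries were found among 9133 genes averaging at least 5 CPM, by the root mean square difference in log2 CPM after each gene's own mean was subtracted. Smaller values mean greater likeness, and a flat gene has many close neighbours. Zbp1 was closest to Bnip3 (0.138) and Prelid2 (0.173), where its own deviation from its mean was 0.453. Casp1, with a deviation of 0.575, was closest to Lyz2 (0.253) and Kremen2 (0.267). Casp8 was closest to Dgkz (0.070) and Dock8 (0.079), and Cflar to Nuak2 (0.112) and Zcchc24 (0.113). Ripk3 was closest to St6galnac6 (0.196) and Tnk2 (0.214), and Mlkl to Pfkm (0.202) and Sfxn5 (0.227). For Ripk1 (Zc3h7b, 0.045, and Usp8, 0.046) and Gsdmd (Gtpbp10, 0.064, and Hnrnpl, 0.065) the gene's own deviation was small as well, 0.045 for Ripk1 and 0.105 for Gsdmd. None of the 8 genes was among the 2 closest to another of them, Casp8 and its neighbour Cflar included. Mlkl, with group means of 3.71 and 4.06 CPM, was below the 5 CPM limit. It was not among the genes searched and could not be found for Ripk3 or any other gene.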

How the data were processed

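Expected counts, 1 column per library and 1 row per Ensembl gene, are what the authors deposited. They were made from poly(A)-selected NEBNext Ultra libraries read as single reads, per the labels' protocols. Cutadapt 1.11, STAR 2.5.2a, RSEM 1.2.30, edgeR and GRCm38 are named, per the submitters' processing notes; what each did, the strand setting and the annotation release are not stated in those notes. Libraries were grouped by title. Expected counts were rounded and tested with edgeR 4.0.16 in R 4.3.3 (quasi-likelihood F test, TMM, filterByExpr with minimum count 10 and total 15, group term only), adjusted over 13966 genes at 0.05, and the script was tested on simulated data. Standard errors are the unshrunken coefficient over the square root of F.

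Exon lengths and overlaps came from GENCODE M21 (GRCm38). All 74 pathway entries were matched, 3 of them through older or RefSeq names. Named genes were the 8, every pathway gene past the threshold, the smallest p of a list with none, and 2 similar profiles for each of the 8; further pathway genes with values were chosen by their role with the values known. Some genes in these lists count toward totals but are not reported here by name. The genes and lists were chosen with earlier results of these data known. Alternatives were RLE and upper-quartile scaling, DESeq2 1.42.0, limma-voom 3.58.1 with and without weights, 2 other filters, robust dispersion, 1 surrogate variable (sva 3.50.0) and leaving out libraries.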

Additional observations from a re-analysis of the deposited data

Results flagged for a closer look

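In 48 sets of 5 values, 2 had a library apart from the other 4 by more than 0.71 of the range of the set, a share that chance alone gives about 1 time in 20. Tlr3 had 592 CPM in C57BL/6J library 1 against 1110 to 1310 CPM in the other C57BL/6J libraries. Chmp2a had 72.1 CPM in Rag2-/-γc-/- library 11 against 81.5 to 84.2 CPM in the other 4. None of the 8 cell death genes had such a library.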

How the results depend on the processing

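No paired analysis was possible because the labels give no donor and no pairing of libraries between the groups. The call counts below are genes higher and lower in C57BL/6J. Over all genes, 464 and 624 became 803 and 1155 in DESeq2, 3306 and 3217 in limma-voom with sample quality weights, 2786 and 2518 without Rag2-/-γc-/- libraries 10 and 11, and 148 and 127 without 7, 8 and 9, and 326 were lower with 1 surrogate variable; leaving out 1 library gave 275 to 1076 and 304 to 1323. Of the 8 genes, 2 were higher in all these fits, and 1 lower became 3 with quality weights (Cflar and Ripk3 added), 2 without libraries 10 and 11, 0 without 7, 8 and 9, 0 with 1 surrogate variable, and 0 to 2 when 1 library was left out. Of the pathway genes, 6 and 1 became 16 and 20 with quality weights, 12 and 16 without libraries 10 and 11, and 2 and 0 without 7, 8 and 9; 5 were lower in DESeq2 and 0 with upper-quartile scaling, with no filter, with at least 1 CPM in 5 libraries (a filter Il18 does not pass) and with 1 surrogate variable, and leaving out 1 library gave 2 to 8 and 0 to 7. The log2 fold change of Mlkl turned from -0.13 to 0.04 with 1 surrogate variable, 0.13 without libraries 7, 8 and 9, and ran from -0.32 to 0.00 when 1 library was left out. Per kilobase of the longest transcript the levels were 6.54 for Cflar, 10.8 for Ripk1 and 16.8 for Gsdmd, against 3.39, 8.40 and 12.7 per merged exons. Differences in the 5 log2 ratios moved by less than 1 SD with a prior count of 0. The cause of these changes was not tested beyond the libraries and lengths left out or replaced. Of the 8 genes depth limits Mlkl and Casp1 most (91 to 401 counts); among the pathway genes Il18 (0.252 to 1.47 CPM) and Casp4 (0.196 to 1.67 CPM) were covered far less.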
